A study of Mus musculus with 14 samples.

Results

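Across 3 cultures of mouse CD4 T cells, 6 genes of nuclear regulators were followed: the HMG-box genes Tox, Tox2 and Tox4, the coactivator gene Pou2af1, and the genes Pou2f1 and Pou2f2 for the Oct1 and Oct2 proteins. They were picked by name, by matching the Entrez gene identifiers of the count table to mouse symbols, and all 6, of 27179 genes in the table, were found and are described. All 6 were also among the 13075 genes with enough counts to be tested. The libraries came from naive CD4 cells of C57BL/6 mice, activated for 3.5 days on plate-bound antibodies to CD3 and CD28 and sorted into lysis reagent. Th1 cells gave 5 libraries. The group named TfhA, cultured toward follicular helper T cells with an antibody that blocks TGF-β, gave 4 (replicates 1, 2, 4 and 5). Tfh5 cells had the follicular helper culture with 5 ng/ml TGF-β, and gave 5. The labels name no other additive of these cultures and do not say whether each library is its own animal or culture; the p-values therefore reflect only how far these samples spread, which may be technical. These cells were polarised in a dish, not in germinal centres.

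TOX proteins bind DNA through a single HMG box, which recognises DNA shape more than a fixed sequence. TOX is needed for CD4 T cells to form in the thymus and for T cells to persist under chronic stimulation, TOX2 is a partner of the follicular helper programme, and TOX4 is a widely expressed subunit of a nuclear phosphatase complex with PNUTS and WDR82. Oct1 and Oct2 bind an octamer element through a POU domain. Oct1 is made in nearly all cells, whereas Oct2 is mostly a lymphoid and neural protein, best known in B cells. The product of Pou2af1, called OCA-B, OBF-1 or Bob1, does not bind DNA alone; it docks on Oct1 or Oct2 at octamer sites, is needed for germinal centres, and is also made in activated T cells.

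The promoters of Pou2af1 and Tox2 are shown because these genes differed most between the cultures. Sequences are from RefSeq on GRCm38.p6 (mm10), 250 bases before to 50 after a start site, on the plus strand. The first is Pou2af1 at chr9:51213440-51213739, the second the most upstream Tox2 window listed, at chr2:163202877-163203176, and the third a downstream Tox2 start at chr2:163225203-163225502. Capitals mark matches to the motifs named after the sequences.
Pou2af1: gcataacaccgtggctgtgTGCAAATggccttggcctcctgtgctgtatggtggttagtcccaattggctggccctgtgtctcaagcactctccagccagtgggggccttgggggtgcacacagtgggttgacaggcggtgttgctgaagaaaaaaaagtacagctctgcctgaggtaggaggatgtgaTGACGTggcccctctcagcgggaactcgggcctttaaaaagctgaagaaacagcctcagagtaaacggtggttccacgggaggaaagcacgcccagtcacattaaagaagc
Tox2 upstream start: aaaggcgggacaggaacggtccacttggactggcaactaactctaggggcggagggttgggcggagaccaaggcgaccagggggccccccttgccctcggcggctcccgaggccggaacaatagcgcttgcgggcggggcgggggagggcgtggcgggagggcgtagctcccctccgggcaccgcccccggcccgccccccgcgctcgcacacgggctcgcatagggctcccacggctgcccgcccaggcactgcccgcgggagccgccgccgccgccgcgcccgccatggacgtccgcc
Tox2 downstream start: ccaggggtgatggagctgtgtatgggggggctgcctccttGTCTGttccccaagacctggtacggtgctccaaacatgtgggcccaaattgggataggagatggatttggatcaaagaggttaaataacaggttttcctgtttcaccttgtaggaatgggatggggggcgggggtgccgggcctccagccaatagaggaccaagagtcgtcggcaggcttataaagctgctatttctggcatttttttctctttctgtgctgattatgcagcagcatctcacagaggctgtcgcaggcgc

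A set of 4 motifs was searched on both strands in all 32851 promoters of this length. The octamer ATGCAAAT, which Oct proteins bind, was in 1.74% of them and in none of the 11 promoters listed for Tox2, Tox4, Pou2af1, Pou2f1 and Pou2f2. The same element without its first base, TGCAAAT, which overlaps the octamer and was added after the sequence of Pou2af1 had been seen, was in 4.02% of all promoters. It lies at bases -231 to -225 of Pou2af1. The core of the cAMP response element, TGACGT, was in 7.51% and lies at bases -61 to -56 of Pou2af1 and, on the reverse strand, at -132 to -127 of Tox4, which differed little between the cultures. The SMAD half-site CAGAC, in 49.6% of promoters, was in 3 of these 11. It was on the reverse strand of the downstream Tox2 promoter at bases -210 to -206, where it reads GTCTG, and at bases -106 to -102 of Tox4. The remaining match was in a near-identical Tox2 window at chr2:163225204-163225503. The Tox2 windows further upstream, including the one shown, matched none of the 4 motifs. Binding was not measured, and these matches only describe the letters of the windows.

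Library totals ran from 8805921 to 16108059 counts, and the common biological coefficient of variation was 14.2%. All 10 T cell markers were present, and their summed level was highest in Tfh5. Levels are in CPM (read counts relative to library size, scaled between libraries by TMM): the T cell marker sums were 5355 to 5682 (Th1), 5458 to 6438 (TfhA) and 8310.2 to 8767 (Tfh5). Cd4 itself stood at 460.2 ± 23.9, 399 ± 30.5 and 548 ± 26.6 CPM (mean ± SD; n = 5, 4 and 5, as for all values given in this order). Of the 10 markers, 9 tested higher and 1 lower in Tfh5 than in Th1, and 8 higher and 1 lower in Tfh5 than in TfhA. The lower one was Thy1 each time, at 555 ± 56, 321 ± 40.4 and 209 ± 12.9 CPM. Mitochondrial transcripts took 5.91% ± 0.871, 5.82% ± 1.30 and 8.03% ± 0.594 of counts; their part in the results was not tested. In bulk RNA, fewer cells of a type and less RNA per cell cannot be told apart.

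The 6 genes fell into 3 patterns. Tox, Tox2 and Pou2af1 rose from Th1 to TfhA and again to Tfh5, with no overlap between any pair of groups. Pou2f2 was high in TfhA alone, and the means of Pou2f1 and Tox4 differed by at most 1.21-fold in the fit. In TfhA against Th1, 4 of the 6 were higher and none lower, where 23.2% of all tested genes were higher, 21.6% lower and 44.8% either. In Tfh5 against TfhA, 4 were higher and 1 lower, against 27.4%, 30.1% and 57.5% of all tested genes. In Tfh5 against Th1, 3 were higher and none lower, against 31.5%, 33% and 64.6%. Every member that passed also had groups without overlap, which held for 38.1% of tested genes in TfhA against Th1, 44.2% in Tfh5 against TfhA and 50.2% in Tfh5 against Th1. With about every second gene passing, the number of members that passed says little, and the size and order of their changes are what follows. The tests were edgeR quasi-likelihood tests over all 14 libraries with p-values adjusted over the 13075 genes.

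**Figure D1:**
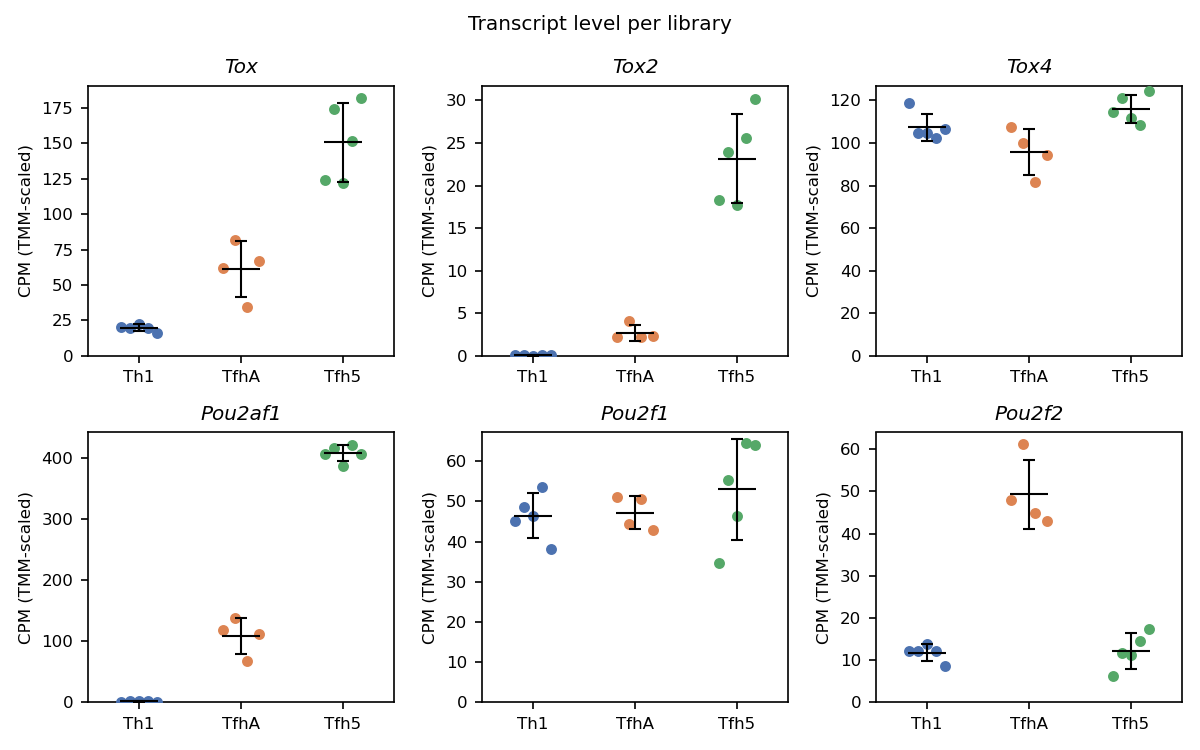
Level of each gene in CPM (TMM-scaled, linear axis from 0) in Th1, TfhA and Tfh5; points are libraries, the horizontal mark is the mean and the bar 1 SD (n = 5, 4 and 5). Tox, Tox2 and Pou2af1 step up in both intervals, Pou2f2 stands high in the 4 TfhA libraries only, and for Pou2f1 and Tox4 the groups lie at like levels, with Pou2f1 spreading from 34.7 to 64.5 CPM in Tfh5.

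Tox (Entrez gene 252838, chr4:6686353-6991557 on mm10, minus strand) encodes the founding member of the family. In the Th1 libraries it stood at 20.7, 19.8, 22.7, 19.8 and 16.3 CPM. The TfhA libraries, in the order of replicates 1, 2, 4 and 5, had 62.0, 81.6, 34.6 and 67.1 CPM, and the Tfh5 libraries 124, 174, 122, 152 and 182 CPM. The 3 ranges did not touch, and TfhA replicate 4 was the lowest of its group by a wide margin. Group means were 19.8 ± 2.31, 61.3 ± 19.6 and 151 ± 27.7 CPM. Tox was 3.09-fold higher in TfhA than in Th1 (log2 fold change 1.63 ± 0.17 SE, edgeR adjusted p = 3.11e-08) and a further 2.45-fold higher in Tfh5 (1.29 ± 0.17, adjusted p = 4.36e-07), making 7.59-fold between Th1 and Tfh5 (2.92 ± 0.17, adjusted p = 9.41e-14). The 2 steps were thus of like size on the log scale.

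Tox2 (Entrez gene 269389, chr2:163203058-163324172, plus strand) was close to undetected in Th1, with 1, 1, 0, 2 and 1 reads per library. In TfhA it reached 2.20, 4.10, 2.17 and 2.34 CPM, from 20 to 48 reads a library. In Tfh5 it reached 18.3, 24.0, 17.7, 25.6 and 30.2 CPM, from 188 to 404 reads. The lowest Tfh5 library was thus above 4 times the highest TfhA library, and replicate 2 stood apart at the top of TfhA. Tfh5 was 8.51-fold above TfhA (log2 fold change 3.09 ± 0.23, adjusted p = 3.76e-11). TfhA was 33.9-fold above Th1 (5.08 ± 0.44, adjusted p = 1.12e-09), and Tfh5 288-fold above it (8.17 ± 0.34, adjusted p = 1.81e-16). The last 2 folds rest on 5 Th1 reads in all. The ratio of pooled levels to Th1 was 38.9 in TfhA, with a 95% counting interval of 16.2 to 122, and 335 in Tfh5, with an interval of 143 to 1033. Among all tested genes Tox2 ranked 30 of 13075 by fold change in TfhA against Th1, 23 in Tfh5 against Th1 and 268 in Tfh5 against TfhA.

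Tox4 (Entrez gene 268741, chr14:52279146-52295509, plus strand) differed little. Its levels were 119, 104, 105, 102 and 107 CPM in Th1, 107, 100.1, 81.5 and 94.4 in TfhA, and 114, 121, 112, 108 and 125 in Tfh5. The TfhA and Tfh5 ranges just failed to meet, and both overlapped Th1. Tox4 was 1.21-fold higher in Tfh5 than in TfhA (log2 fold change 0.28 ± 0.09, adjusted p = 0.0132). That call was lost without TfhA replicate 4, the lowest library (0.20 ± 0.09, adjusted p = 0.0625). Against Th1 the log2 fold change was -0.16 ± 0.09 in TfhA (adjusted p = 0.158) and 0.11 ± 0.09 in Tfh5 (adjusted p = 0.257). Of its exon bases, 13.4% also lie in exons of Mettl3 and 2.81% in exons of Rab2b, both on the other strand, and the labels do not say how such reads were counted. Rab2b was itself higher in Tfh5 than in TfhA (70.3 ± 7.02 against 32.3 ± 4.54 CPM, log2 fold change 1.12 ± 0.12, adjusted p = 2.28e-08), and its part in the Tox4 difference was not tested.

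Within a library, the number of Tox2 reads per Tox read needs no scaling between libraries. The log2 of this count ratio was -7.72 ± 0.923 in Th1, -4.47 ± 0.410 in TfhA and -2.71 ± 0.127 in Tfh5 (0.5 added to each count). Tox2 thus gained on Tox, by 3.39-fold from TfhA to Tfh5 and by 9.51-fold from Th1 to TfhA. Both differences had an exact permutation p of 0.00794 (two-sided, 0.0085 adjusted over 15 ratio tests), the smallest that these group sizes allow. Against Tox4 the gain was 7.07-fold and 31.7-fold, with the same p-values. The ratios in Th1 depend on the added constant: with 2 added, the log2 difference between TfhA and Th1 was 2.20 in place of 3.25 for Tox2 to Tox, and 3.93 in place of 4.99 for Tox2 to Tox4. Between Tfh5 and Th1 these were 3.89 in place of 5.01 and 6.68 in place of 7.81.

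**Figure D2:**
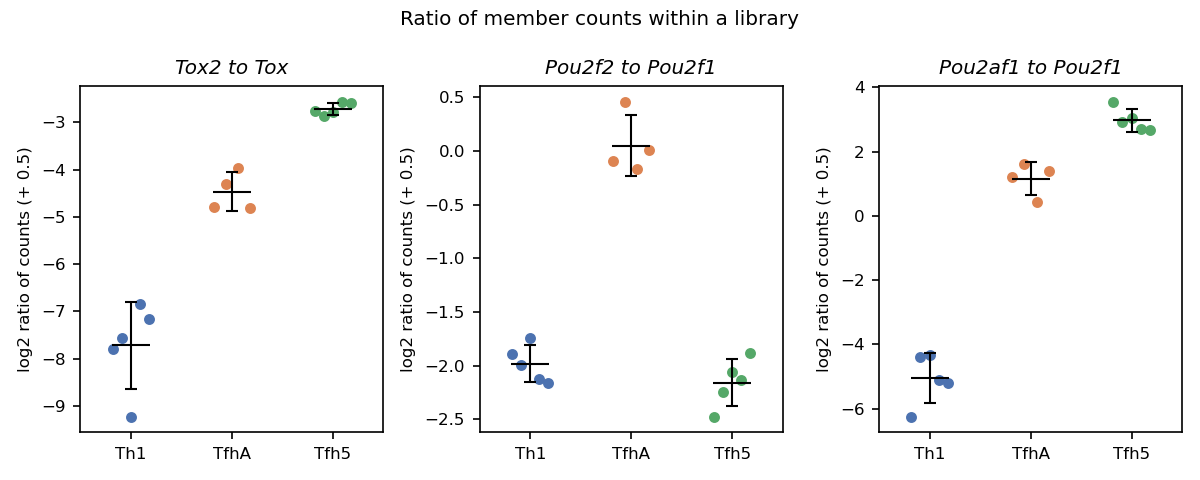
Log2 ratio of the counts of 2 genes within each library (0.5 added), for Tox2 to Tox, Pou2f2 to Pou2f1 and Pou2af1 to Pou2f1; points are libraries, the mark is the mean and the bar 1 SD. The Tox2 to Tox and Pou2af1 to Pou2f1 ratios rise in both intervals, while Pou2f2 to Pou2f1 is near 0.05 in TfhA and near -2 in the other groups.

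Pou2af1 (Entrez gene 18985, chr9:51213690-51240079, plus strand), whose protein bridges Oct factors to transcription, had 0.561, 2.29, 2.27, 1.53 and 0.990 CPM in Th1. It had 118, 137, 67.4 and 111 CPM in TfhA and 406, 416, 387, 420.1 and 406 CPM in Tfh5. Every TfhA library exceeded every Th1 library by more than an order of magnitude, and TfhA replicate 4 was again the lowest of its group, as for Tox, Tox2 and Tox4. That library had the fewest counts of all 14 (8805921) and the lowest mitochondrial share (4.07%), and the part of either was not tested. The Tfh5 libraries were within a coefficient of variation of 3.16%, against 27.2% in TfhA. Pou2af1 was 71.6-fold higher in TfhA than in Th1 (log2 fold change 6.16 ± 0.23, adjusted p = 9.85e-17), rank 13 of 13075 by fold change. It was a further 3.75-fold higher in Tfh5 (1.91 ± 0.17, adjusted p = 5.66e-10), rank 559. Between Th1 and Tfh5 the difference was 268-fold (8.07 ± 0.23, adjusted p = 8.89e-20). Unlike Tox, whose 2 steps were of like size, most of the Pou2af1 difference in log2 units lay between Th1 and TfhA.

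Pou2f2 (Entrez gene 18987, chr7:25087350-25180797, minus strand), the gene of Oct2, went up and back down. In Th1 it had 12.1, 12.1, 13.8, 12.3 and 8.53 CPM. In TfhA it had 47.9, 61.2, 44.9 and 43.0 CPM, and in Tfh5 6.19, 11.6, 11.1, 14.6 and 17.3 CPM. The TfhA libraries lay above all others, and Th1 and Tfh5 overlapped over most of their ranges. Pou2f2 was 4.18-fold higher in TfhA than in Th1 (log2 fold change 2.06 ± 0.19, adjusted p = 3.6e-09) and 4.02-fold lower in Tfh5 than in TfhA (-2.01 ± 0.19, adjusted p = 2.75e-09). Between Tfh5 and Th1 the log2 fold change was 0.06 ± 0.19 (adjusted p = 0.815). Of the 6 genes it alone was called lower in Tfh5 than in TfhA.

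Pou2f1 (Entrez gene 18986, chr1:165865150-166002749, minus strand), the gene of Oct1, passed in no comparison. Its levels were 45.1, 48.5, 46.3, 53.7 and 38.2 CPM in Th1, 51.0, 44.5, 50.6 and 42.8 in TfhA, and 34.7, 55.3, 46.4, 64.5 and 63.9 in Tfh5. All 3 ranges overlapped, and Tfh5 spread the most, with replicate 1 lowest. The log2 fold change was 0.03 ± 0.14 in TfhA against Th1 (adjusted p = 0.903), 0.17 ± 0.14 in Tfh5 against TfhA (adjusted p = 0.333) and 0.19 ± 0.13 in Tfh5 against Th1 (adjusted p = 0.216). Without Tfh5 replicate 1 the last pair passed, at 0.29 ± 0.12 (adjusted p = 0.0427) and 0.31 ± 0.11 (adjusted p = 0.0194). That library was also the lowest for Pou2f2. Deviations of both Oct genes from their group means had a Pearson r of 0.839 over the 14 libraries and 0.623 over 13 without it; the genes share libraries and depth. Of the Pou2f1 exon bases, 18.1% also lie in exons of Cd247, the CD3 zeta chain gene on the other strand. Cd247 stood at 138 ± 7.82, 139.6 ± 14.8 and 127 ± 18 CPM and passed in no comparison (log2 fold changes -0.14 to 0.02).

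**Figure D3:**
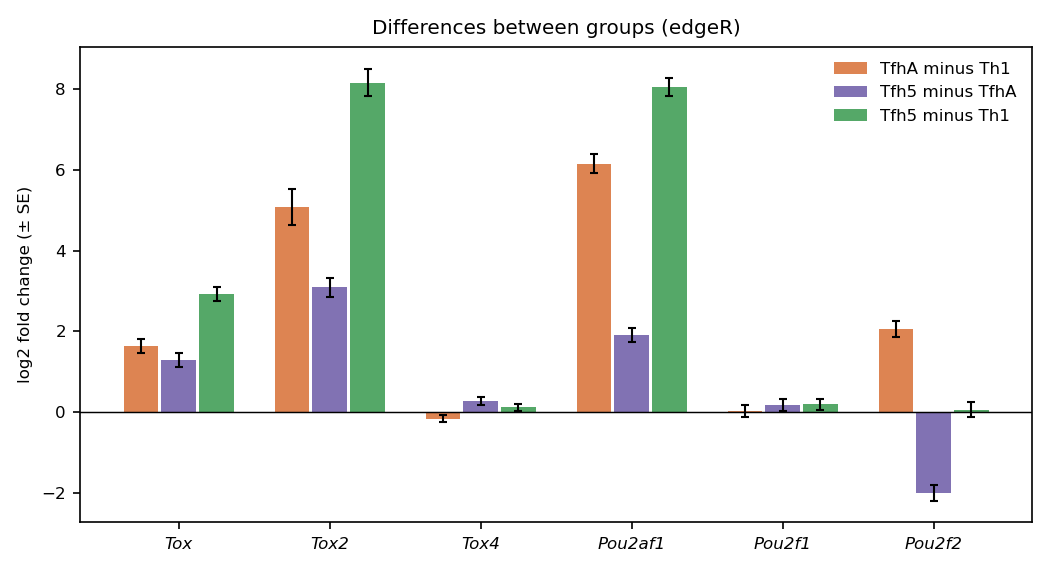
Log2 fold change of each gene from the edgeR fit in the 3 comparisons; bars start at 0 and error bars are 1 SE. Tox2 and Pou2af1 reach about 8 in Tfh5 against Th1, Pou2f2 has bars of opposite sign at about 2 and -2, and those of Tox4 and Pou2f1 stay under 0.3 in size.

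The count ratios of Pou2af1 to either Oct gene differed in each culture, while that of Pou2f2 to Pou2f1 set only TfhA apart. These are ratios of reads and are not corrected for exon length. The log2 count ratio of Pou2f2 to Pou2f1 was -1.98 ± 0.172 in Th1, 0.05 ± 0.282 in TfhA and -2.16 ± 0.222 in Tfh5. TfhA was 4.10-fold above Th1 and Tfh5 4.63-fold below TfhA, without overlap (exact permutation p = 0.00794 each, 0.0085 adjusted). Th1 and Tfh5 overlapped, with a log2 difference of -0.18 (exact permutation p = 0.206). For Pou2af1 to Pou2f1 the means were -5.06 ± 0.780, 1.16 ± 0.524 and 2.98 ± 0.357, so Tfh5 libraries held 6.35 to 11.7 Pou2af1 reads for each Pou2f1 read and TfhA libraries 1.33 to 3.09. For Pou2af1 to Pou2f2 they were -3.07 ± 0.767, 1.11 ± 0.357 and 5.14 ± 0.554. From TfhA to Tfh5 that ratio rose 16.3-fold, since one gene rose as the other fell, and from Th1 to TfhA 18.1-fold, where both rose (exact permutation p = 0.00794 each, 0.0085 adjusted).

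Pou2f2 and Pou2af1 are also B cell genes, so B cell markers are given beside them. Ms4a1, Cd79a and Cd79b, which mark B cells, together had 0.347 to 1.25 CPM (Th1), 2.65 to 5.20 (TfhA) and 0.408 to 1.70 (Tfh5), or 5 to 20, 25 to 56 and 4 to 18 reads a library. They were thus highest in TfhA, as was Pou2f2. Of the 17 listed B cell markers 11 could be tested: 6 were higher and 1 lower in TfhA than in Th1, and 2 were higher and 6 lower in Tfh5 than in TfhA. In Tfh5 against Th1, 3 were higher and 3 lower. Ms4a1, Cd79b and Blnk had enough counts for the test only through TfhA, where their lowest libraries were at 1.06, 0.849 and 0.985 CPM. Their highest libraries elsewhere, in Tfh5, were at 0.0952, 0.661 and 0.762 CPM. The filter on low counts thus favoured their calls as highest in TfhA, and these calls lend no support of their own. Pax5 and Fcrla had no read in Th1, and Spib and Fcrla none in Tfh5. The whole list summed to 75.4 to 85.0 CPM (Th1), 94.8 to 127 (TfhA) and 202 to 247 (Tfh5), and in Tfh5 most of it was Ighm (211 ± 17.1 CPM). Ebf1, a B lineage factor, was at 29.3 ± 3.64, 17.2 ± 4.45 and 0.526 ± 0.442 CPM, and the light chain gene Igkc at 6.05 ± 0.808, 11.7 ± 3.50 and 5.53 ± 0.627 CPM. Of the 5 plasma cell markers 4 were tested: 3 were higher and 1 lower in TfhA than in Th1, and 1 higher and 2 lower in Tfh5 than in TfhA. The last comparison had 1 lower in a fit of those groups alone, without any 1 of the Th1 libraries, without TfhA replicate 1 or without Tfh5 replicate 5, and 2 higher in the last pair of these. Jchain had 5, 100 and 9 reads in all in Th1, TfhA and Tfh5, Mzb1 5, 76 and 0, and Tnfrsf17 none in any group. Jchain and Mzb1 also had enough counts for the test only through TfhA. Sdc1 was at 1.53 ± 0.928, 5.05 ± 1.69 and 30.7 ± 6.02 CPM. Whether B cells or plasma cells had a part in the TfhA level of Pou2f2 or Pou2af1 was not tested. In Tfh5, where Pou2af1 was highest, markers went both ways: Ms4a1 had 1 read over the 5 libraries, Cd79a 36 and Spib none, while Ighm, Sdc1 and Ighd were at their highest. Ighd had 29, 20 and 216 reads in Th1, TfhA and Tfh5.

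**Figure D4:**
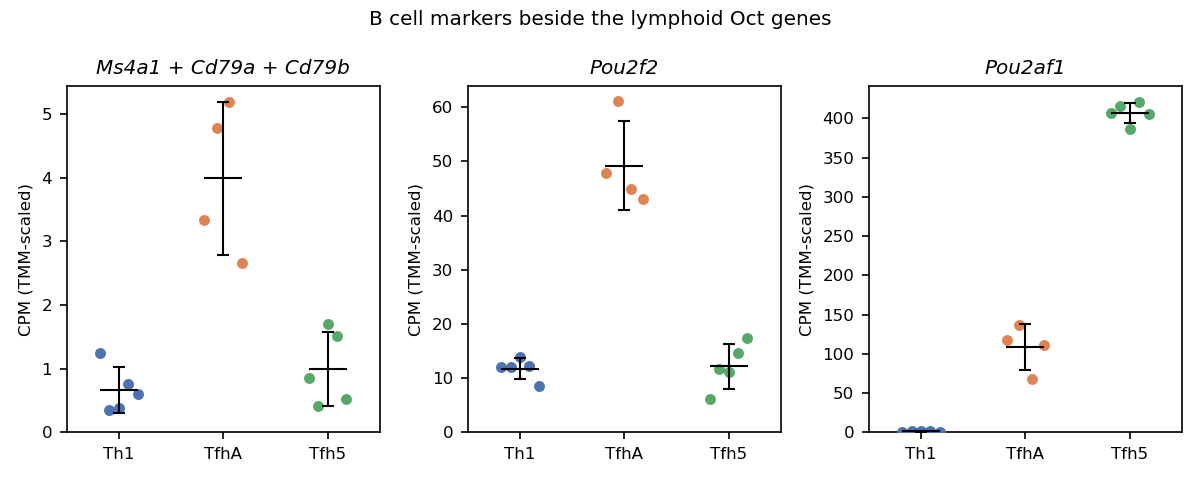
Summed CPM of 3 B cell markers (Ms4a1, Cd79a and Cd79b), and CPM of Pou2f2 and Pou2af1 (TMM-scaled, linear axes from 0), per library in Th1, TfhA and Tfh5; the mark is the mean and the bar 1 SD. The sum of these 3 reaches at most 5.20 CPM and peaks in TfhA, as Pou2f2 does, while Pou2af1 is highest in Tfh5. The whole list of 17 B cell markers summed highest in Tfh5, mostly from Ighm.

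Markers of other cell types were also summed. Myeloid and dendritic cell markers (10 genes) summed to 1.25 to 1.75, 2.55 to 5.95 and 1.33 to 2.28 CPM in Th1, TfhA and Tfh5, with Adgre1, Siglech and C1qa at 0 throughout. Their sums were thus highest in TfhA, as was Pou2f2, and their part in that result was not tested. Of the 2 that could be tested, Itgam was at 0.150 ± 0.131, 2.02 ± 0.601 and 0.865 ± 0.461 CPM and passed in all 3 comparisons, though in Tfh5 against Th1 not in a fit of those groups alone. Flt3 was at 0.686 ± 0.0991, 1.29 ± 0.954 and 0.414 ± 0.387 CPM and was lower in Tfh5 than in TfhA. In Tfh5 against TfhA both were thus lower, but none was so without TfhA replicate 4 or Tfh5 replicate 2 or 4, and 1 without TfhA replicate 2 or 5, without Tfh5 replicate 1 or 3, or with no filter on low counts. The 6 CD8 T and NK cell markers summed to 14.1 to 35.9, 9.98 to 24.0 and 9.40 to 24.3 CPM, most of it Cd8b1 (17.8 ± 8.70, 10.7 ± 6.04 and 12.9 ± 4.89 CPM), and Ncr1 was at 0; neither tested gene of this list passed. Cd8a, with 34, 87 and 2 reads in all, had too few counts for the test. The 5 plasma cell markers summed to 442 to 493, 266 to 368 and 357 to 439 CPM, most of it Xbp1, which T cells also express.

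To compare genes with each other, levels were divided by exon length (2.549 kb for Pou2af1 to 16.597 kb for Pou2f1, union of GENCODE M21 exons). In Th1 the order was Tox4 (15.4 ± 0.932 CPM per kilobase), Pou2f1 (2.79 ± 0.338), Tox (2.61 ± 0.304), Pou2f2 (1.43 ± 0.237), Pou2af1 (0.599 ± 0.301) and Tox2 (0.0204 ± 0.0145). Only Pou2f1 and Tox overlapped among neighbours. In TfhA Pou2af1 led (42.6 ± 11.6), before Tox4 (13.8 ± 1.57), Tox (8.06 ± 2.58), Pou2f2 (5.97 ± 0.995), Pou2f1 (2.84 ± 0.253) and Tox2 (0.793 ± 0.275), and only Tox and Pou2f2 overlapped. In Tfh5 Pou2af1 stood at 159.7 ± 5.05, well above Tox (19.8 ± 3.64) and Tox4 (16.7 ± 0.962), which overlapped, then Tox2 (6.81 ± 1.54), Pou2f1 (3.19 ± 0.760) and Pou2f2 (1.48 ± 0.507), whose libraries met. Pou2af1 thus stood next to last in Th1 and first in the other groups. With the longest transcript as the length, 9 of the 18 levels moved by more than 1 SD, all of them of Tox, Tox4 and Pou2f1. Tox then stood at 5.01, 15.5 and 38.0 CPM per kilobase, so that in Th1 it came before Pou2f1 (3.55), and in Tfh5 Tox4 was at 21.7.

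**Figure D5:**
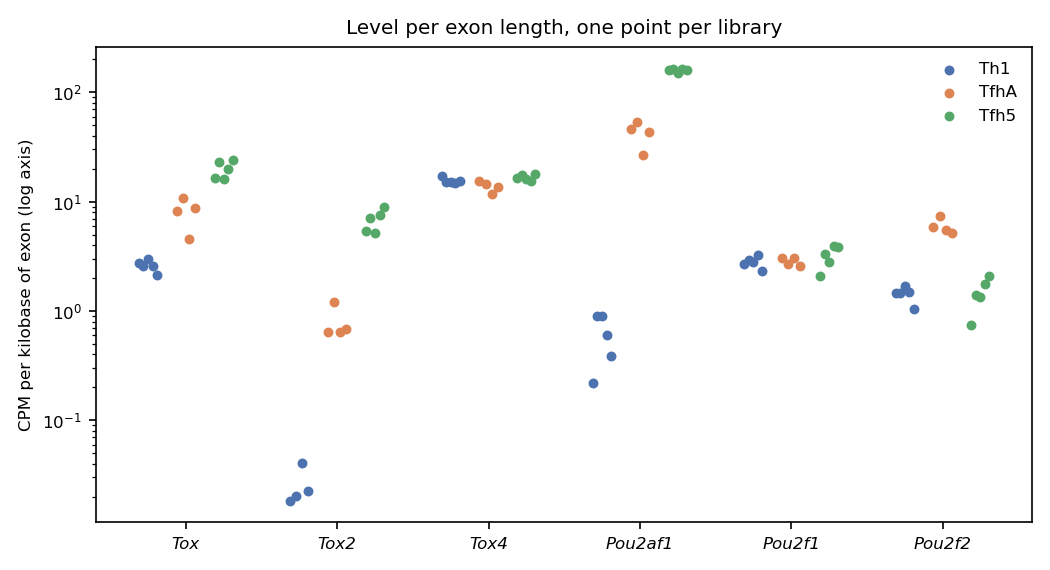
CPM per kilobase of exon on a log axis, with 1 point per library and groups side by side for each gene. The 1 Th1 library with no Tox2 read cannot be drawn; Pou2af1 is next to last in Th1 and first in TfhA and Tfh5.

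Close relatives were mostly silent. Tox3 had 4, 0 and 3 reads in all in Th1, TfhA and Tfh5. Of 15 POU genes, 3 could be tested. Beside the Oct genes this was Pou6f1, a POU factor studied mainly in brain, which rose from 10.3 ± 1.59 and 15.3 ± 4.27 to 143 ± 15.2 CPM in Tfh5, 9.3-fold above TfhA (log2 fold change 3.22, adjusted p = 5.87e-15). Pou4f1 had 58, 29 and 13 reads, Pou5f2 18, 8 and 9, and the third Oct gene of this class, Pou2f3, 1, 2 and 0.

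The partners of TOX4 in the PTW/PP1 phosphatase complex moved by small amounts. Of 6 genes including Tox4, 2 were higher and none lower in TfhA than in Th1, among them the phosphatase gene Ppp1cb (1.61-fold) and Wdr82 (1.29-fold). In Tfh5 against TfhA the 1 that was higher was Tox4 itself, and 2 were lower: the phosphatase gene Ppp1ca (1.27-fold) and Ppp1r10, which encodes PNUTS, at 69.1 ± 8.16 against 83.7 ± 5.21 CPM (edgeR adjusted p = 0.0201). Without TfhA replicate 4 none was higher and 1 lower, without Tfh5 replicate 1 the number lower was 1, and without TfhA replicate 5 the number higher was 2. In Tfh5 against Th1 2 were higher and 2 lower. The list's median log2 fold changes were 0.01, 0.16 and 0.12 in these 3 comparisons.

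All 14 listed partners and regulators of Oct factors were tested. In Tfh5 against TfhA 2 were higher and 2 lower, among them Snapc3 (1.38-fold higher) and Hcfc1, which encodes the Oct1 partner HCF-1 (1.32-fold lower). The ubiquitin ligase genes Siah1a and Siah1b, whose products target OCA-B for breakdown, parted: Siah1a rose 2.26-fold (25.3 ± 3.52 against 11.2 ± 1.11 CPM, adjusted p = 3.73e-07) and Siah1b fell 2.87-fold (3.03 ± 0.658 against 8.68 ± 0.403, adjusted p = 1.34e-06). Both are near-identical relatives, so shared reads make the split between them uncertain. In TfhA against Th1 5 were higher and 2 lower, among them the snRNA factor genes Snapc5 (1.78-fold higher) and Snapc2 (1.70-fold lower) and the TATA-binding protein gene Tbp (1.55-fold higher). The number higher was 3 without TfhA replicate 5 or with no filter on low counts. The number lower was 1 with total counts as the scaling, without TfhA replicate 1 or 2, and without Th1 replicate 2, 4 or 5. In Tfh5 against Th1 7 were higher and 4 lower.

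Genes linked in earlier work to Oct factors and OCA-B moved in both directions. Of 22 listed, 19 were tested. In TfhA against Th1 4 were higher and 8 lower, with a median log2 fold change of 0.15 against 0.03 for all tested genes. Il2, the T cell growth factor gene, has octamer sites in its promoter region. It was at 2.68 ± 0.877 CPM in Th1, 64.6 ± 20.8 in TfhA and 8.40 ± 2.09 in Tfh5. It thus peaked in TfhA as Pou2f2 did, and a link between these genes was not tested. Il2 was 24.2-fold higher in TfhA than in Th1 (adjusted p = 5e-14) and 7.66-fold lower in Tfh5 than in TfhA (adjusted p = 1.19e-11). In Tfh5 against TfhA 5 of the 19 were higher and 11 lower (median -1.43, all tested genes -0.01), with Il17a and Bcl6 among the higher, and Ifng, Tbx21, Il3, Prdm1 and Btla among the lower. Prdm1, which encodes the repressor Blimp-1, was at 42.0 ± 4.66, 3.76 ± 0.971 and 0.130 ± 0.110 CPM, the reverse order of Pou2af1, and Tbx21, the gene of T-bet, at 244 ± 35.3, 61.6 ± 7.06 and 1.90 ± 0.424 CPM. Il3 had 17.7 ± 2.22 and 21.5 ± 4.04 CPM in Th1 and TfhA and 2 reads in all of Tfh5. Btla, an inhibitory receptor gene, fell 2.69-fold (334 ± 26.4 against 897 ± 123 CPM, adjusted p = 9.37e-12). In Tfh5 against Th1 6 were higher and 12 lower (median -1.19).

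Calcineurin and NFAT act upstream of Tox in stimulated T cells. Their list, which also held Rcan and Nr4a genes, Cabin1, Irf4 and Batf, had 15 tested genes of 16. Of these, 5 were higher and 4 lower in TfhA than in Th1 (median 0.05), 4 and 4 in Tfh5 against TfhA (median 0.00), and 6 and 6 in Tfh5 against Th1 (median 0.09). Nr4a1, an immediate target of receptor signals, rose stepwise like Tox, from 64.3 ± 6.55 to 132 ± 23.5 and 288 ± 59.9 CPM, and so did Nfatc1, from 155 ± 8.83 to 250.1 ± 38.6 and 385 ± 63.8 CPM, and Nfatc3. Nr4a2 was lower in Tfh5 than in both other groups, with 64.7 ± 4.95, 54.8 ± 4.44 and 16.7 ± 6.33 CPM, and Irf4 was lowest in TfhA (1011 ± 92.1 CPM, against 2212 ± 104 in Th1 and 2224 ± 69.6 in Tfh5). The catalytic gene Ppp3ca was highest in TfhA, as Pou2f2 was, with 11.4 ± 1.42, 25.8 ± 5.67 and 13.4 ± 2.48 CPM.

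Inhibitory receptors that accompany TOX in chronically stimulated T cells moved in both directions. Of 11 tested, 3 were higher and 6 lower in TfhA than in Th1 (median log2 fold change -0.36), 5 and 5 in Tfh5 against TfhA (0.58), and 5 and 5 in Tfh5 against Th1 (0.08). Lag3 was at 118 ± 26.4, 55.9 ± 12.2 and 169 ± 34.5 CPM and Ctla4 at 606 ± 46.7, 221 ± 20.6 and 643 ± 62.0 CPM, both lowest in TfhA, where Tox was at its middle level. Entpd1, which encodes CD39, was at 21.3 ± 3.39, 1.77 ± 0.224 and 5.49 ± 1.74 CPM and Cd200 at 1120.2 ± 74.4, 578 ± 71.0 and 123 ± 16.4 CPM, both lower in either follicular culture than in Th1. Cd160 was at 0.692 ± 0.376, 9.92 ± 1.07 and 1.73 ± 0.346 CPM, highest in TfhA. Vsir alone among those named was called higher at both steps, from 58.1 ± 7.50 to 131 ± 17.1 and 196 ± 19.0 CPM. Pdcd1 was highest in Tfh5, as Tox was, but was not called in TfhA against Th1 (35.8 ± 5.61, 40.4 ± 8.37 and 66.5 ± 11.5 CPM). Tigit ran opposite to Tox (38.2 ± 3.51, 29.6 ± 3.74 and 19.3 ± 4.76 CPM).

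Of 15 tested follicular helper genes linked to TOX2, 6 were higher and 3 lower in TfhA than in Th1 (median 0.31), 9 and 4 in Tfh5 against TfhA (0.72), and 10 and 5 in Tfh5 against Th1 (1.61). Tcf7, the gene of TCF-1, rose at both steps as Tox2 did (124 ± 17.7, 658 ± 117 and 2080.4 ± 135 CPM). Bcl6, the master regulator of follicular helper cells, and Cxcr5 were high in Tfh5 and near their Th1 level in TfhA: Bcl6 had 12.3 ± 2.83, 16.3 ± 5.07 and 105 ± 16.6 CPM. Maf, which encodes c-Maf, rose at both steps (19.6 ± 6.34, 31.7 ± 3.03 and 1419 ± 153 CPM), and so did the IL-6 receptor gene Il6ra (35.3 ± 2.99, 85.2 ± 9.86 and 108 ± 21.7 CPM). Sh2d1a, the gene of the adaptor SAP, was lowest in TfhA (336 ± 40.4, 99.9 ± 15.8 and 220.0 ± 24.9 CPM). Cd40lg and Icos went the other way from Tox2 and fell at both steps. Cd40lg had 328 ± 35.9, 149.5 ± 30.0 and 46.6 ± 3.41 CPM, and Icos 927 ± 65.8, 633 ± 54.6 and 373 ± 12.8 CPM. TfhA libraries thus had Tox2 and Pou2af1 well above Th1 without a called difference in Bcl6 (edgeR adjusted p = 0.061). Slamf6 was highest in TfhA (30.7 ± 4.63, 379 ± 45.2 and 169 ± 22.0 CPM).

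Other HMG-box genes moved in both directions. Of 19 tested, 7 were higher and 6 lower in TfhA than in Th1 (median 0.10), 7 and 7 in Tfh5 against TfhA (0.08), and 8 and 6 in Tfh5 against Th1 (0.13). Beside Tcf7, Sox4 rose at both steps (2.14 ± 0.585, 4.60 ± 0.867 and 89.0 ± 23.4 CPM). Sox5 fell 6.25-fold from TfhA to Tfh5 (45.6 ± 7.13 to 7.33 ± 1.49 CPM). Hmgb2, a chromatin protein gene, peaked in TfhA (31.8 ± 2.56, 55.2 ± 14.7 and 19.3 ± 5.18 CPM), and Hbp1 was highest in Tfh5 (62.8 ± 4.65, 53.9 ± 3.71 and 131 ± 13.6 CPM). For these lists the medians were the same with genes that had no read in a group set at their bound of 3 counts.

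The genes most like each member were found by Pearson correlation of log2 CPM over the 14 libraries, among 9010 genes with a settled symbol and at least 10 CPM in a group. Since the libraries fall into 3 groups, r mostly reflects the group means. For Tox they were Nr4a1 (r = 0.986), Nfatc1 (0.984), Angptl2 (0.981), Tcf7 (0.981) and Arsb (0.980), and the most opposite was the intermediate filament gene Vim (-0.993). For Tox2 they included Ext1 (0.994), Tcf7 (0.992), Runx1 (0.991) and Il16 (0.990), and the most opposite Selp (-0.996). For Pou2af1 they were Ipcef1 (0.995), Sgk1 (0.994), Rassf5 (0.993), Pecam1 (0.990) and Ripor2 (0.989), with Irf1 most opposite (-0.994). For Pou2f2 they were Nolc1 (0.955), Unc13a (0.954), Heatr1 (0.953), Nrp1 (0.951) and Ipo9 (0.951), all highest in TfhA; Nolc1 and Heatr1 act in the nucleolus. For Tox4 the best was Crtc2 (0.940) and for Pou2f1 Zfp369 (0.920). Tox and Tox2 correlated with each other at 0.979, Tox2 with Pou2af1 at 0.962, Tox with Pou2af1 at 0.953, and Pou2af1 with Pou2f2 at 0.253. For deviations from the group means these values were 0.499, 0.0666, 0.475 and 0.248. Values above 0.9 were common, held by 5.28% of the 9010 genes for Tox, 6.49% for Tox2 and 4.48% for Pou2af1.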

How the data were processed

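The authors deposited raw counts per Entrez gene for 14 libraries made from 100 ng RNA with a Lexogen SENSE mRNA kit, per the labels' protocols. The submitters' processing notes name STAR 2.7.2b, featureCounts 1.6.4 and mm10; strand setting, annotation and handling of overlapping or multiply mapped reads were not given in the sources used here. Values in the series table matched the 14 single-sample files, with 0 columns of other samples. Of 27179 genes, 25275 matched a RefSeq symbol.

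All libraries entered one fit in edgeR 4.0.16 (R 4.3.3, limma 3.58.1): filterByExpr (13075 genes), TMM, group means, no covariate, two-sided quasi-likelihood F test, Benjamini-Hochberg adjustment over all tested genes, threshold 0.05. SE is the log2 fold change divided by the square root of F. DESeq2 1.42.0, other scalings and filters, 2-group fits, the replicate block and leaving out each library were alternatives. The test was also run on simulated counts. Count ratios (0.5 added) were compared by exact permutation over libraries. Log2 CPM carry a prior count of 2. Intervals cover counting error only.

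The genes, lists (TOX, POU and OCA-B families; PTW/PP1 complex; Oct partners; Oct-linked, NFAT, inhibitory receptor, follicular helper and HMG-box genes; markers of T, B, plasma, CD8 and NK, and myeloid cells) and tests were chosen with earlier results of these data known. Of 177 listed names 175 matched; 1 B cell marker and 1 gene most like Tox2 are not reported here. Named from each list were up to 4 called genes per comparison of at least 5 CPM, by size of change; such a gene may recur in the account of another list or comparison. Marker genes below that level, and Cd40lg, Icos, Pdcd1 and Tigit, were named after their values were seen. Sequence motifs other than the octamer were chosen after the files were seen.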

Additional observations from a re-analysis of the deposited data

Results flagged for a closer look

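Among 18 sets of member levels (6 genes in 3 groups), 2 held a library apart from the rest of its group by more than Dixon's 95% limit, which chance gives for about 1 group in 20. Tox2 in TfhA replicate 2 stood at 4.10 CPM, the highest of its group, where the other 3 lay between 2.17 and 2.34. That library was also the highest of TfhA for Tox, Pou2af1 and Pou2f2. Tox4 in Th1 replicate 1 stood at 119 CPM, above 102 to 107 in the other Th1 libraries.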

How the results depend on the processing

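Each fold change of the 6 genes was recomputed under 20 alternatives, and 350 of 360 values kept their direction and their side of the threshold. In 7 the sign turned while neither value passed the test. Of these, 4 were Pou2f1 in TfhA against Th1, which was -0.010 with no filter on low counts and ranged from -0.041 to 0.077 (log2) when 1 library was left out. The other 3 were Pou2f2 in Tfh5 against Th1, which ranged from -0.11 to 0.22. The remaining 3 changed their side of the threshold without 1 library. Tox4 in Tfh5 against TfhA ranged from 0.20 to 0.33 (log2), and its call was lost without TfhA replicate 4. Pou2f1 ranged from 0.091 to 0.29 in Tfh5 against TfhA and from 0.11 to 0.31 in Tfh5 against Th1, and passed in both only without Tfh5 replicate 1. The cause was not tested. All 155 recomputed ratio tests and all 180 counts of called genes kept their result, the latter within 1.5 times. Of 1800 recomputed list counts, 86 moved by more than 1.5 times or to or from 0, in the POU, PTW/PP1, Oct partner, T, plasma, CD8 and NK, and myeloid lists. Whether replicate numbers pair the libraries is not given and was not settled here. Correlations of same-numbered deviations ran from -0.05 to 0.16, and 5 of 14 libraries correlated best with their own number. No chance level was computed for these values. With replicate number as a block, 7258 genes were called in Tfh5 against TfhA in place of 7520, 5521 in place of 5852 in TfhA against Th1 and 8285 in place of 8440 in Tfh5 against Th1, and no call of the 6 genes changed. Depth limits Tox2 in Th1, where 5 reads set every fold against that group.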
